A study of Mus musculus with 6 samples.

Results

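The genes of the voltage-gated and related ion channel families were examined in interscapular brown adipose tissue (BAT) of mice fed a low-fat diet (LFD) or a high-fat diet (HFD). Members were chosen by symbol, taking every gene whose name begins with Kcn (potassium channels), Scn and a digit (sodium channels), Cacn (calcium channels), Clcn (chloride channels and transporters) or Hcn (cyclic nucleotide-gated pacemaker channels). Of 152 symbols so matched, 3 names of opposite-strand or overlapping transcripts were left out, which gave 149 members of 47729 genes. Kcnmb4os1 and Kcnmb4os2 are transcripts opposite Kcnmb4 that this naming rule retained, and both were too low to test, with at most 0.09 TPM in any mouse. The other 147 members are channel pore or auxiliary subunit genes of 13 families. A list of 15 genes of the skeletal muscle fibre was set apart from the remaining 132 channel genes. The families had been picked for their difference between these diets, so the diet differences below describe the members and are not independent evidence.

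All 6 mice were wild type C57BL/6J males, single-housed and fed from 6 to 10 weeks of age. The HFD group received a 45% high-fat diet for 4 weeks and the LFD group a standard rodent diet, with 3 mice sequenced in each. The 3 mice of a diet were those with the greatest, the medium and the least fat mass, and the labels do not say which replicate number is which. RNA came from the right interscapular depot, ribosomal RNA was removed, and single-end reads of 75 bases were counted per gene.

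A channel gene codes either for the pore itself or for an auxiliary subunit that places the pore in the membrane and sets its gating. In a skeletal muscle fibre a sodium channel carries the action potential, a calcium channel in the transverse tubule senses it and opens the calcium store, and chloride and potassium channels bring the membrane back to rest. Brown adipocytes, immune cells, glia and smooth muscle each use other members of the same families, and a bulk tissue sample adds them together.

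Total counts were between 17156991 and 21603487 per mouse, and mitochondrially encoded genes took 8.50% to 22.7% of them in HFD-fed and 3.87% to 13.8% in LFD-fed mice. As a check of the tissue, Ucp1, the uncoupling protein that defines brown adipocytes, was at 2728, 4021 and 796 TPM (a transcript level corrected for gene length and library size) in HFD replicates 1, 2 and 3. Its level in LFD replicates 1, 2 and 3 was 443, 11.0 and 76.0 TPM, so this marker was low in LFD replicates 2 and 3. The summed TPM of 15 skeletal muscle markers was 5712, 13586 and 1974 in the LFD-fed mice and 46.8, 201 and 8.60 in the HFD-fed mice, each in the order of replicates 1, 2 and 3, as in all values that follow. Acta1, the actin of the skeletal muscle fibre, alone was at 872, 2336 and 486 TPM in the LFD-fed mice. Libraries labelled as BAT of LFD-fed mice thus carried far more RNA of muscle genes than those of HFD-fed mice, and every muscle channel value below stands beside that difference. In bulk RNA, fewer cells of a type and less RNA per cell cannot be told apart.

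Among the 147 channel genes, 137 had a count in at least 1 mouse, 51 had a mean level of 1 TPM or more and 10 of 10 TPM or more. The low-count filter passed 86, of which 15 were on the muscle list and 71 were not. The 61 that it removed included 10 with no count, and none of the 61 had a mean level above 0.47 TPM. Of the 15 muscle channels, 7 had under 10 reads in every HFD-fed mouse and passed the filter through the LFD-fed mice alone, so they had to be lower in HFD. These 7 were Cacng1, Cacng6, Clcn1, Kcna7, Kcnc1, Kcnc4 and Kcnj12. The same filter effect held in the opposite direction for Cacna1b among the 71 others.

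Summed over all channel genes, the level was 194, 316 and 277 TPM in the HFD-fed and 319, 602 and 425 TPM in the LFD-fed mice. All 3 HFD values lay below all 3 LFD values. The muscle list made up 17.9, 27.0 and 21.2 TPM of it in the HFD-fed mice and 92.6, 264 and 89.8 TPM in the LFD-fed mice. As a share of channel TPM this was 8.49% ± 0.81 in HFD and 31.3% ± 11.5 in LFD (SD, n = 3). The remaining channels summed to 240 ± 58.0 TPM in HFD and 300 ± 63.3 TPM in LFD (SD, n = 3), and there the 2 ranges overlapped.

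**Figure D1:**
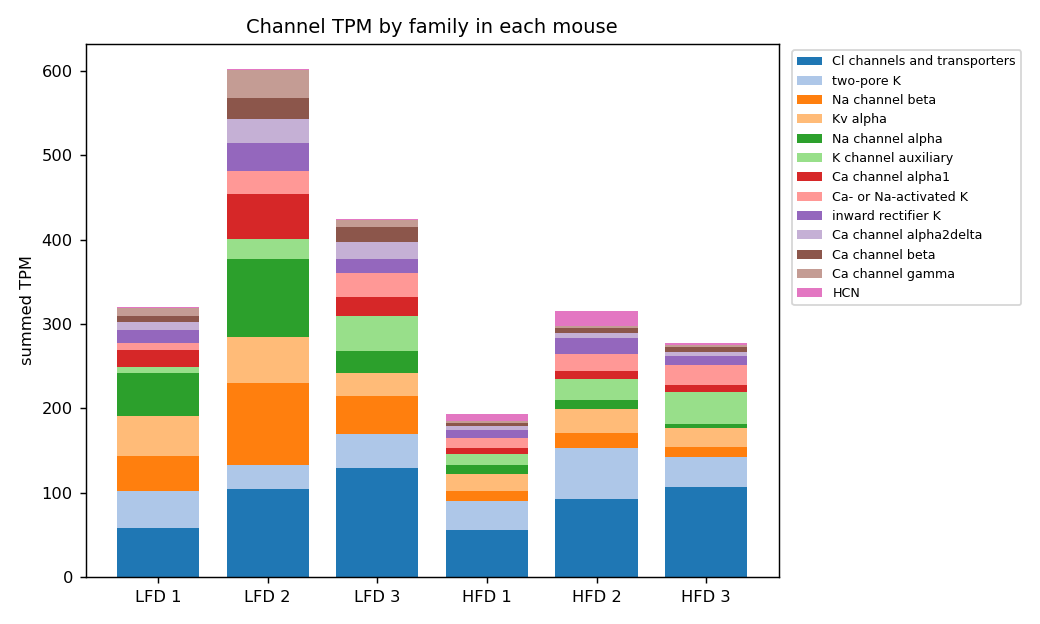
Stacked bars of summed TPM of the channel genes in each mouse, 1 colour per family. The 3 HFD bars end between 194 and 316 TPM and the 3 LFD bars between 319 and 602 TPM, and chloride channels and transporters take the bottom segment of each bar.

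Sodium channel alpha subunits summed to 10.9, 11.0 and 5.09 TPM in the HFD-fed mice and to 50.9, 92.7 and 26.5 TPM in the LFD-fed mice. Calcium channel alpha1 subunits were at 7.06, 9.50 and 8.26 TPM in HFD and 19.7, 53.8 and 22.1 TPM in LFD. Chloride channels and transporters, the family with the highest sum in every mouse, ranged over 55.6 to 107 TPM in HFD and 57.6 to 129 TPM in LFD. The ranges of the first 2 families did not overlap between diets and those of the chloride family did. Without the muscle list, calcium alpha1 subunits overlapped, at 6.90, 9.11 and 8.09 TPM in HFD and 3.27, 10.15 and 16.5 TPM in LFD. Sodium alpha subunits without that list did not, at 10.7, 10.6 and 5.07 TPM in HFD and 43.9, 68.7 and 22.7 TPM in LFD.

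No channel gene, and 0 of all 17668 tested genes, was called in either direction by edgeR's quasi-likelihood test at an adjusted p below 0.01 with a log2 fold change beyond 1.5 on either side. The smallest adjusted p of a channel was 0.170. DESeq2 with the same thresholds called 14 channels lower and 1 higher in HFD, where it called 1.53% of 19965 genes lower and 0.531% higher. At an unadjusted p under 0.05 DESeq2 had 26 channels lower and 5 higher, beside 5.26% and 3.49% of all genes with a count. At the same p edgeR had 22 channels lower in HFD (12 of the muscle list and 10 others), beside 6.62% of all tested genes. It had 4 higher, none of them on the muscle list, beside 3.86% of all tested genes. With the replicate number as a block, 7 channels were higher and 28 lower at that p, beside 8.75% and 8.76% of all tested genes. In log2 CPM, the count normalised to library size, the HFD-fed mice all lay below the LFD-fed mice for 23 channels (12 and 11) and above them for 6, beside 9.23% and 6.72% of all tested genes. The muscle channels in these lower counts include the 7 near 0 in HFD whose direction the filter fixed. The higher counts of edgeR include Cacna1b, so the direction of these genes is not a result.

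The median log2 fold change, HFD over LFD, was -4.71 over the 15 muscle channels and -0.33 over the 71 remaining channels, beside -0.05 over all tested genes. The muscle median includes the 7 genes whose direction the filter fixed. On the muscle list 14 values were negative and 1 positive, and among the others 47 were negative and 24 positive. The study named 12 of the 15 muscle channels as lower in these same mice, so their count and their median of -5.16 are not independent evidence of the direction. Kcnj2, Kcnj11 and Kcne3, which it did not name, had a median of -1.36, and each of them overlapped between the diets in log2 CPM.

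**Figure D2:**
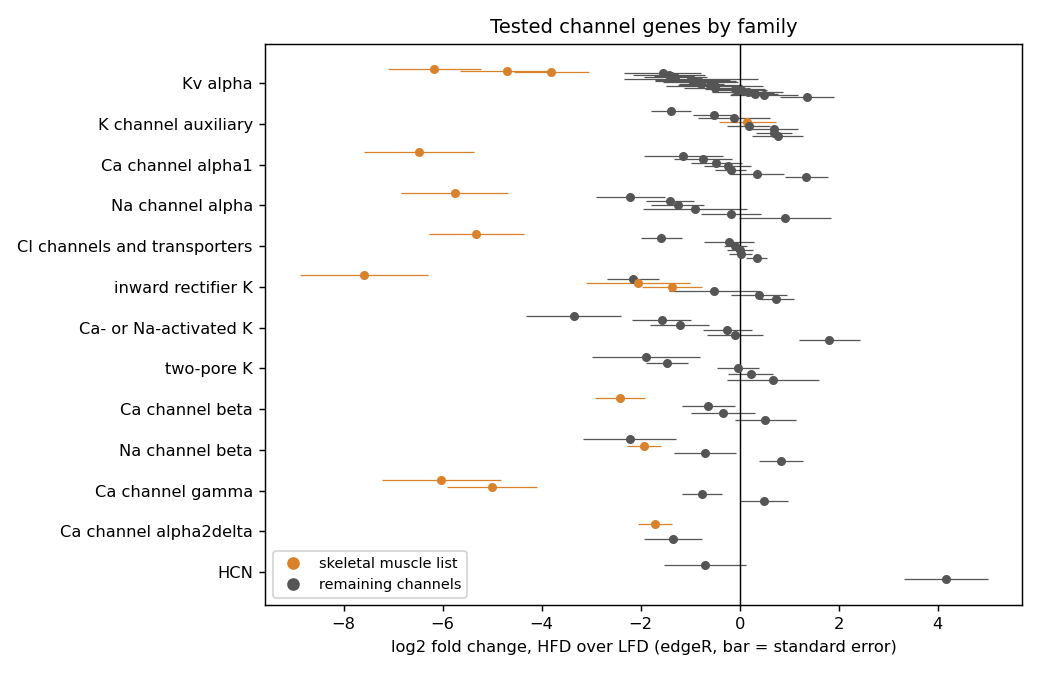
Log2 fold change (HFD over LFD, edgeR) of the 86 tested channel genes, with the standard error as a bar, 1 row per family. Muscle list genes (orange) reach down to -7.59 while most remaining channels (grey) lie within a few units of 0, with Hcn2 alone beyond 4 on the right.

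The channels that start and sense the muscle action potential are described first. Scn4a, the sodium channel of the skeletal muscle fibre (chr11:106318592-106353288, minus strand, GRCm38), was at 0.19, 0.40 and 0.02 TPM in HFD and at 6.92, 23.9 and 3.75 TPM in LFD. These levels rested on 10, 25 and 2 reads in HFD and on 452, 1322 and 176 reads in LFD. Every LFD-fed mouse was above every HFD-fed mouse, and the log2 fold change was -5.76 (SE 1.08, edgeR adjusted p = 0.173).

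Cacna1s is the voltage sensor of the transverse tubule, the pore-forming subunit of the muscle L-type calcium channel (chr1:136052750-136119822, plus strand). It was at 0.16, 0.39 and 0.17 TPM in the HFD-fed mice and at 16.5, 43.7 and 5.61 TPM in the LFD-fed mice (log2 fold change -6.48, SE 1.11, edgeR adjusted p = 0.170). Cacna1s was 83.4%, 81.1% and 25.4% of all calcium alpha1 TPM in LFD replicates 1, 2 and 3, and 2.06% to 4.11% in the HFD-fed mice. The leading alpha1 gene of HFD replicates 1 and 2 was Cacna1a, a channel best known from nerve terminals, at 57.2% and 43.3%, and that of HFD replicate 3 and LFD replicate 3 was Cacna1c, the L-type channel of heart and smooth muscle.

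The auxiliary subunits of the same calcium channel complex differed in how far they were from 0 in HFD. Cacng1, its gamma subunit, was at 0.16, 0.16 and 0.34 TPM in HFD and 3.74, 19.6 and 2.71 TPM in LFD (log2 fold change -5.00, SE 0.91). Cacng6, a related gamma subunit, was at 0.06, 0.13 and 0 TPM in HFD and 3.38, 9.40 and 1.06 TPM in LFD (log2 fold change -6.03, SE 1.20). Cacnb1, the beta subunit of skeletal muscle, was at 0.99, 1.78 and 1.90 TPM in HFD and 5.45, 18.3 and 5.68 TPM in LFD (log2 fold change -2.42, SE 0.50). Cacna2d1, the alpha2delta subunit that many cell types share, was at 4.33, 5.77 and 4.20 TPM in HFD and 8.76, 27.2 and 19.1 TPM in LFD (log2 fold change -1.71, SE 0.34). In all 4 subunits the diets did not overlap. Cacnb3, a beta subunit outside the muscle list, was the leading beta subunit of all 3 HFD-fed mice with 53.7% to 68.1% of the beta TPM, where Cacnb1 led in LFD replicates 1 and 2.

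Clcn1, the chloride channel that steadies the resting membrane of muscle fibres (chr6:42286685-42315756, plus strand), was at 0.04, 0.23 and 0.02 TPM in HFD and 1.83, 7.88 and 1.42 TPM in LFD. Its log2 fold change was -5.33 (SE 0.96, adjusted p = 0.173), on 3, 8 and 1 reads in the HFD-fed mice. The values of the diets did not overlap.

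Potassium channels of muscle repolarise the fibre or hold it at rest. Kcnj12, an inward rectifier, had 0, 1 and 0 reads in HFD and 88, 140 and 15 reads in LFD, and 0.57 to 4.53 TPM in the LFD-fed mice. With 1 read in the HFD group its LFD over HFD ratio was 255, with a 95% counting interval of 45.4 to 10128 that leaves out the spread between mice, and the fitted log2 fold change of -7.59 depends on the prior count. Kcna7, a delayed rectifier, was at 0.01, 0.11 and 0.02 TPM in HFD and 2.85, 6.72 and 1.54 TPM in LFD (log2 fold change -6.17, SE 0.94). These genes were near 0 in each HFD-fed mouse.

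Kcnc1 and Kcnc4 belong to the fast-gating Kv3 channels. Kcnc1 was at 0.02 to 0.03 TPM in HFD and at 1.29, 1.48 and 0.23 TPM in LFD (log2 fold change -4.71, SE 0.94), and Kcnc4 was at 0.03 to 0.10 TPM in HFD and 0.42, 2.02 and 0.58 TPM in LFD (log2 fold change -3.80, SE 0.76). Both were low in every mouse, with at most 6 reads in an HFD-fed mouse.

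The muscle potassium channels that other cells also use showed overlapping values. Kcnj2, the inward rectifier that sets the resting potential in muscle and in macrophages, was at 0.95, 2.40 and 2.88 TPM in HFD and 2.48, 13.1 and 3.05 TPM in LFD (log2 fold change -1.36, SE 0.61). Without LFD replicate 2 this value was -0.42. Kcnj11, the pore of the ATP-sensitive potassium channel, was at 0.10 to 0.62 TPM in HFD and 0.97, 5.56 and 0.53 TPM in LFD (log2 fold change -2.06, SE 1.06). Kcne3, an auxiliary subunit, was at 0.51, 1.07 and 0.79 TPM in HFD and 0.39, 0.94 and 2.17 TPM in LFD, and was the only muscle list gene with a positive log2 fold change, 0.15 (SE 0.57). In TPM the mean of Kcne3 was lower in HFD, and its sign in the count fit also turned without LFD replicate 1 or 2.

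**Figure D3:**
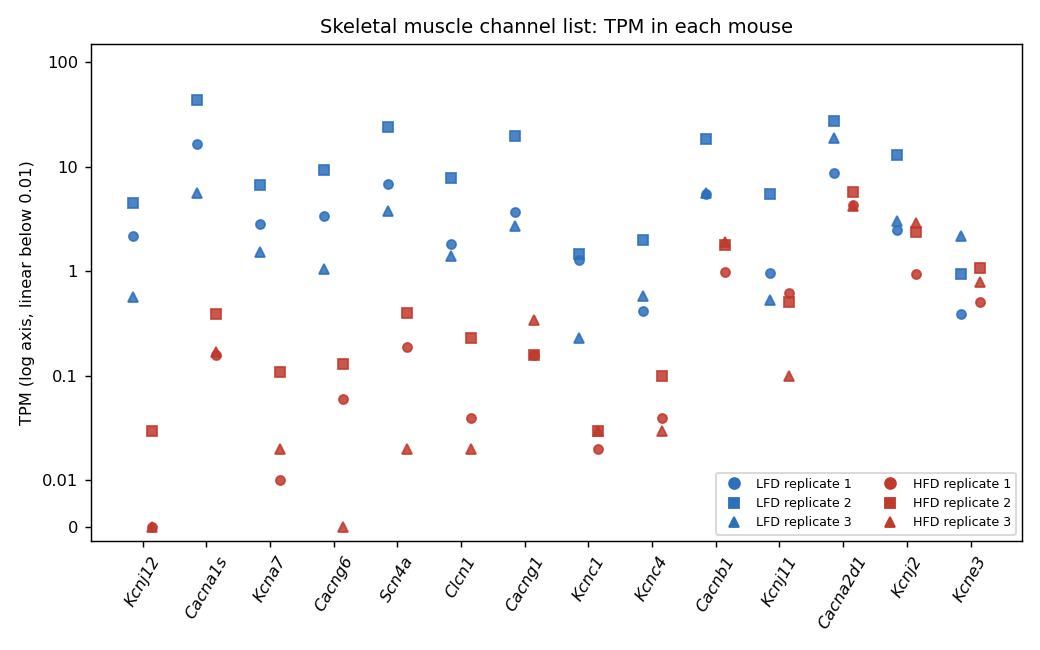
TPM of 14 skeletal muscle list genes in each of the 6 mice, on an axis that is logarithmic above 0.01 and linear below, LFD in blue and HFD in red, with a marker shape per replicate number. The blue points lie above the red ones for 11 genes and mix with them for Kcnj11, Kcnj2 and Kcne3, and LFD replicate 2 (square) is the highest blue point for all genes plotted but Kcne3.

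The 12 muscle channels that did not overlap had edgeR adjusted p values of 0.170 to 0.177. With the replicate number as a block, 9 muscle channels and Scn7a reached an adjusted p under 0.05, beside 184 of all tested genes. Among the 9 were Kcnj12, Kcna7, Cacng6, Clcn1, Kcnc1 and Kcnc4, which passed the filter through the LFD-fed mice alone. Their direction was fixed in advance. Cacna1s and Scn4a then had an adjusted p of 0.0102, and Scn7a one of 0.048.

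The order of the mice within a diet does not use the diet contrast. In the LFD-fed mice, log2 CPM ran from replicate 2 over replicate 1 to replicate 3 in 14 of 15 muscle channels (93.3%), in all 15 muscle markers, in 13 of the 71 remaining channels (18.3%) and in 9.35% of all tested genes. The same order among the HFD-fed mice was found in 7 of 15 muscle channels (46.7%), 14 of 15 muscle markers, 11 of the 71 remaining channels (15.5%) and 10.2% of all tested genes. For the 7 muscle channels with under 10 reads in every HFD-fed mouse, that order rests on few reads or on ties. The HFD share of the muscle channels is therefore not comparable with that of the markers. Kcne3 was the muscle channel that departed from the order in LFD. The genes share their libraries, so these are descriptions of 3 mice a diet.

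Setting a channel beside the summed markers in each mouse gave different pictures for the muscle-restricted and the shared channels. Per 1000 TPM of the 15 muscle markers, Scn4a was at 4.06, 1.99 and 2.33 TPM in HFD and at 1.21, 1.76 and 1.90 TPM in LFD. Cacna1s was at 3.42, 1.94 and 19.8 TPM in HFD and 2.88, 3.21 and 2.84 TPM in LFD on the same measure. Relative to the marker sum, Scn4a was thus no lower in HFD than in LFD in any mouse, and Cacna1s was lower in HFD replicate 2 alone.

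Cacna2d1 stood at 28.7 to 488 TPM per 1000 marker TPM in HFD and at 1.53 to 9.68 in LFD, and Kcnj2 at 11.9 to 335 in HFD and 0.43 to 1.55 in LFD. Both genes had a level in the HFD-fed mice that did not scale with the markers. The HFD values divide by a marker sum as low as 8.60 TPM in replicate 3, which makes them unstable.

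**Figure D4:**
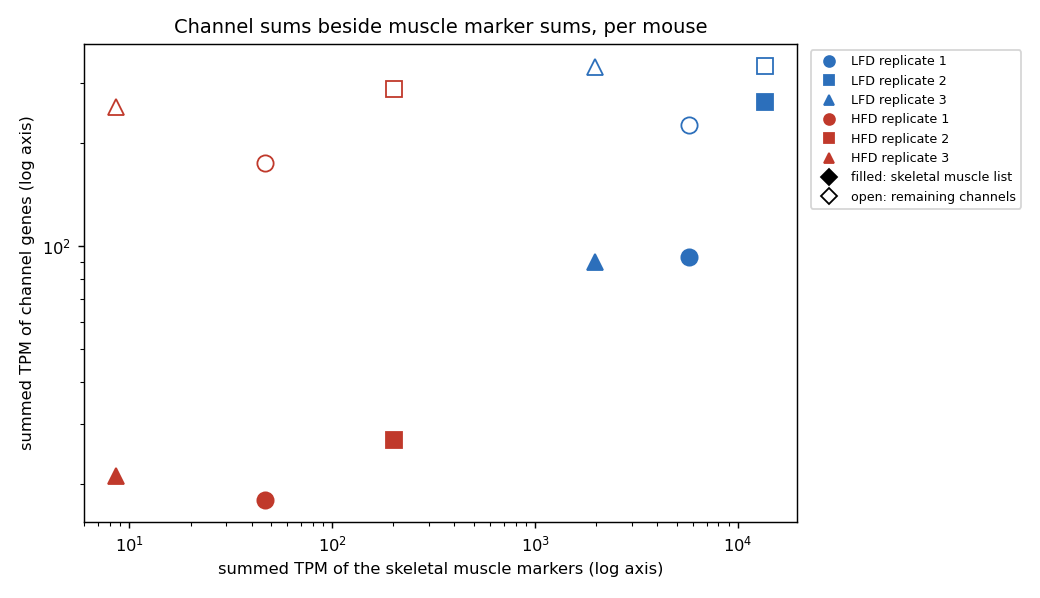
Summed TPM of channel genes (vertical, log axis) against summed TPM of the 15 skeletal muscle markers (horizontal, log axis) in each mouse, filled symbols for the muscle channel list and open symbols for the remaining channels. Between HFD (red, markers at 8.60 to 201 TPM) and LFD (blue, markers at 1974 to 13586 TPM), the filled points range from 17.9 to 264 TPM and the open points from 176 to 338 TPM.

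The genes whose products work with these channels in excitation and contraction, none of them a family member, gave 9 of 10 lower in HFD at an unadjusted p under 0.05, with a median log2 fold change of -5.74. The study had named Ryr1, Jph2, Jsrp1, Trdn, Atp2a1 and Hrc as lower in these same mice. The count and median of these partners are therefore not independent evidence of the direction. Ryr1, the calcium release channel that Cacna1s opens, was at 0.24, 0.87 and 0.10 TPM in HFD and 24.1, 56.2 and 6.54 TPM in LFD (log2 fold change -5.94). Stac3, the adaptor that brings Cacna1s to the tubule, was at 0.47, 1.13 and 0.83 TPM in HFD and 6.79, 24.4 and 5.62 TPM in LFD (log2 fold change -3.96). All 15 muscle markers were lower at the same p, with a median log2 fold change of -6.21. Of all tested genes, 6.62% were lower at that p. The part of muscle RNA in the channel differences was not tested.

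Promoters were read for the muscle channels because these genes were lower together. RefSeq promoter windows (GRCm38.p6, 250 bases before to 50 after the start) were found for 12 of the 15 muscle genes, in 14 windows, and for 95 of the remaining channel genes, in 132 windows. Both strands were searched for CAGCTG, an E-box bound by myogenic factors, for the general E-box CANNTG, which contains it, for the MEF2 motif, for the CArG box and for CATTCC, a motif of TEAD factors. The stretches shown are the MEF2 match of Clcn1 and the CAGCTG matches of Cacna1s and Kcnj2, on the plus strand, 100 bases each, with the match in capitals.
Clcn1, chr6:42286585-42286684: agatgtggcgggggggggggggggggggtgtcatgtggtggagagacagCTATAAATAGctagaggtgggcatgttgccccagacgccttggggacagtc
Cacna1s, chr1:136052641-136052740: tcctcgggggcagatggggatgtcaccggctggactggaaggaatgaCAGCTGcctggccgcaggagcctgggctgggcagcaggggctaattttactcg
Kcnj2, chr11:111065914-111066013: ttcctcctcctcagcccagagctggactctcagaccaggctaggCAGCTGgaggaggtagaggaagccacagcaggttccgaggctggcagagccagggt
Counted from the RefSeq start of each promoter window, which for Cacna1s lies downstream of the GENCODE gene start given above, the MEF2 match of Clcn1 lay at -51 to -42, the CAGCTG match of Cacna1s at -123 to -118 and that of Kcnj2 at -206 to -201. CAGCTG was in 2 of 14 muscle channel windows (14.3%), in 27.3% of those of the remaining channels and in 16.3% of all 32851 promoter windows. The MEF2 motif was in 1 of 14 (7.14%), in 2.27% and in 3.19%, and CANNTG was in 78.6%, 73.5% and 72.3%. CATTCC was in 14.3%, 18.2% and 14.7%, and the CArG box was in 0 muscle and 0 remaining channel windows and in 1.63% of all. CAGCTG and CATTCC in the remaining channels, MEF2 in the muscle list and CANNTG in both were above their shares of all promoters. The muscle list shares rest on 14 windows with 0 to 2 matches for every motif but CANNTG. A gene can add several windows, as Kcnc2 does, where some windows overlap and each holds CAGCTG. No share was tested, and a match in a window is a run of letters, not a bound site.

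Outside the muscle list, the channel genes with the highest mean TPM over the 6 mice included, in falling order, Clcn7, Scn7a, Kcnk3, Clcn4, Clcn5, Kcnab2, Clcn3, Kcnk6 and Kcnmb4. The 5 intracellular chloride-proton exchangers, which act in endosomes and lysosomes, had no value past an unadjusted p of 0.05 and log2 fold changes between -0.21 and 0.34. Clcn7, the exchanger of the lysosome, was at 20.3, 36.5 and 46.6 TPM in HFD and 17.8, 31.5 and 41.0 TPM in LFD (log2 fold change 0.34, SE 0.22). Clcn4 was at 14.6, 21.6 and 18.8 TPM in HFD and 17.1, 22.9 and 23.2 TPM in LFD (log2 fold change 0.02, SE 0.23), and Clcn3 had one of 0.00 (SE 0.26). Clcn5, at 4.77, 15.2 and 42.2 TPM, differed more between the LFD-fed mice than between the diets (log2 fold change -0.21, SE 0.51), and Clcn6 had a log2 fold change of -0.09 (SE 0.23). Summed over the 5 genes, the level was 54.7, 90.8 and 106 TPM in HFD and 53.8, 92.8 and 125 TPM in LFD, lowest in replicate 1 and highest in replicate 3 of each diet.

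Kcnk3, the two-pore potassium channel of brown adipocytes (chr5:30588170-30625271, plus strand), was at 25.6, 48.7 and 16.9 TPM in HFD and 35.1, 9.55 and 5.41 TPM in LFD. LFD replicate 1 lay within the HFD range, and the log2 fold change of 0.68 (SE 0.92) became 2.41 without that mouse. Kcnk6, another two-pore channel, was at 4.61, 6.61 and 10.7 TPM in HFD and 2.90, 8.46 and 20.9 TPM in LFD (log2 fold change -0.03, SE 0.43). The diets overlapped for both.

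Hcn2 had the highest log2 fold change of all tested channels. It codes for a pacemaker channel subunit of heart and brain that opens on hyperpolarisation and binds cyclic AMP (chr10:79716634-79736108, plus strand). Its levels were 8.76, 17.3 and 1.85 TPM in HFD and 0.46, 0.48 and 1.00 TPM in LFD, on 599, 862 and 100 reads against 25, 21 and 37. Each HFD-fed mouse was above each LFD-fed mouse, while the HFD-fed mice differed among themselves far more than the LFD-fed mice. The log2 fold change was 4.17 (SE 0.85, edgeR adjusted p = 0.177) and lay between 3.70 and 4.68 when each mouse was left out in turn. Hcn2 was 92.5% to 99.2% of the HCN family TPM in HFD and 48.5% to 58.5% in LFD.

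Among the other channels known from heart and developing muscle, Kcnh2 had a log2 fold change of -1.56 (SE 0.78), Hcn4 one of -0.70 (SE 0.82) and Kcnq1 one of 0.29 (SE 0.41), all with overlapping diets, and Kcne1 was too low to test. Of 12 brown adipocyte markers, 2 were higher in HFD at an unadjusted p under 0.05, beside 3.86% of all tested genes, and 7 with the replicate block, beside 8.75%. The median log2 fold change of the 12 was 1.35, and 1.65 with the block. Without the block, 9 of them had a positive value and 3 a negative one, Adipoq (-1.19), Plin1 (-0.78) and Fabp4 (-0.35). Summed levels were 6232 to 13544 TPM in HFD and 3626 to 13200 TPM in LFD. Fabp4 alone was at 3664 to 5014 TPM in HFD and 2624 to 8136 TPM in LFD. None of the 12 was at 0 in any mouse. Ucp1 had the same order as Hcn2 among the HFD-fed mice and another order among the LFD-fed mice. The part of brown adipocyte content in the values of Hcn2 and Kcnk3 was not tested.

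Kcnn4 and Kcna3, the 2 genes of the immune cell list, were higher in HFD at an unadjusted p under 0.05, as were 3.86% of all tested genes. Kcnj2, which macrophages also use, had a negative log2 fold change with overlapping values, as given above. Kcnn4, the calcium-activated channel that keeps calcium entry going in T cells and macrophages (chr7:24370263-24386690, plus strand), was at 5.95, 9.29 and 11.8 TPM in HFD and 0.64, 2.95 and 6.44 TPM in LFD. LFD replicate 3 reached above HFD replicate 1 in TPM, while log2 CPM did not overlap, and the log2 fold change was 1.81 (SE 0.62, edgeR adjusted p = 0.383). Kcnn4 led the calcium-activated family in the HFD-fed mice with 44.8% to 51.7% of its TPM, and Kcnmb4, an auxiliary subunit of the BK channel, led it in the LFD-fed mice with 31.9% to 54.2%. In LFD Kcnmb4 led in TPM and not in reads, with 21, 67 and 82 reads. Kcnn1 had 116 reads in LFD replicate 1, Kcnma1 267 in LFD replicate 2 and Kcnn4 131 in LFD replicate 3. Kcnmb4 itself had a log2 fold change of -0.25 (SE 0.50) with overlapping values, and whether reads from its opposite-strand transcripts were kept apart by strand is not given in the sources used here. Kcna3, the voltage-gated channel of T cells, was at 0.57, 0.96 and 1.99 TPM in HFD and 0.15, 0.71 and 0.82 TPM in LFD (log2 fold change 1.36, SE 0.55, adjusted p = 0.462).

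Kcnab2, a cytoplasmic subunit of Kv1 channels, was at 9.07, 16.97 and 29.8 TPM in HFD and 3.08, 13.6 and 30.2 TPM in LFD (log2 fold change 0.77, SE 0.52). It was lowest in replicate 1 and highest in replicate 3 of each diet, as were Kcnn4 and Kcna3. Of 11 T and NK cell markers tested, 7 were higher in HFD at an unadjusted p under 0.05, beside 3.86% of all tested genes (median log2 fold change 2.00). The summed level of the list was 16.2 to 46.6 TPM in HFD and 13.0 to 22.7 TPM in LFD. Trac alone had a negative log2 fold change, -2.11, and its 20.8 TPM in LFD replicate 1 made up most of the highest LFD sum. Of 12 macrophage markers, 3 were higher and 1 lower, beside 3.86% and 6.62% of all tested genes (median 0.41). Their sums were 1864 to 3918 TPM in HFD and 594 to 4373 TPM in LFD. No marker of either list was at 0 in any mouse, and the part of these cells in the channel values was not tested.

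**Figure D5:**
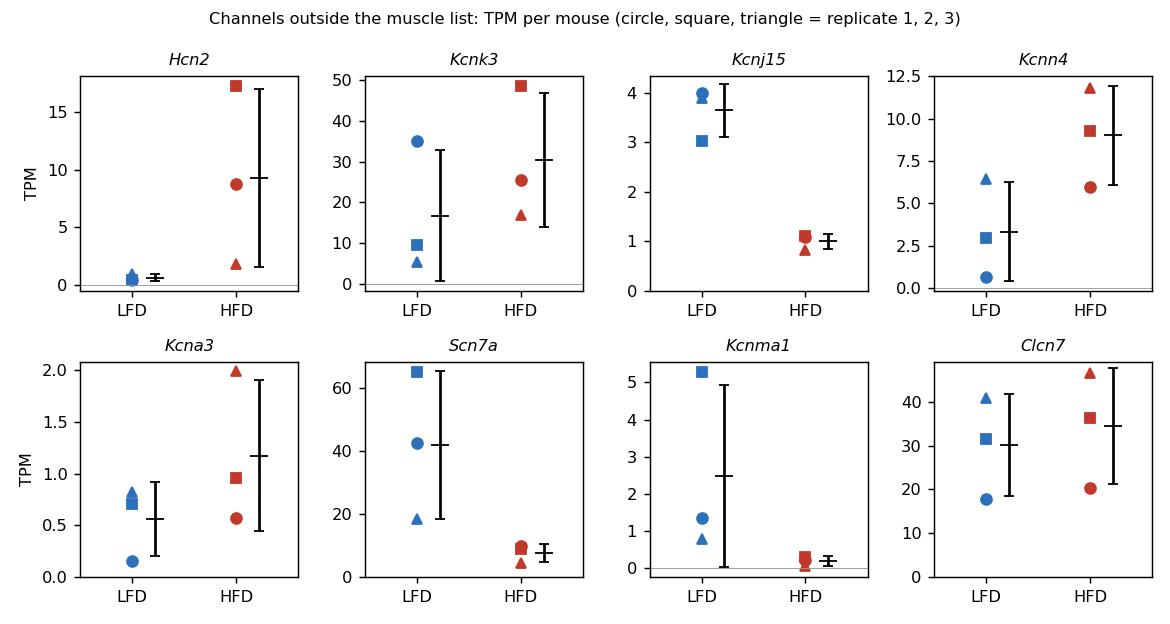
TPM per mouse of 8 channel genes outside the muscle list, LFD at left and HFD at right in each panel, with circle, square and triangle for replicates 1, 2 and 3 and a bar for the mean and SD (n = 3). Hcn2 is higher and Scn7a, Kcnma1 and Kcnj15 are lower in each HFD-fed mouse when set against each LFD-fed mouse, and the other 4 genes overlap between the diets in TPM.

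Scn7a, a sodium channel of Schwann cells and other glia that responds to sodium level rather than to voltage (chr2:66673425-66784914, minus strand), was the main sodium channel alpha subunit of every mouse, with 80.6% to 89.1% of that family's TPM in HFD and 69.0% to 83.6% in LFD. It was at 9.68, 8.86 and 4.34 TPM in HFD and 42.5, 65.0 and 18.3 TPM in LFD, on 547 to 6573 reads. The TPM ranges did not overlap, the log2 CPM ranges did, and the log2 fold change was -2.21 (SE 0.70, edgeR adjusted p = 0.346).

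Of the 9 Schwann cell and nerve markers tested, 2 were lower and 1 higher in HFD at an unadjusted p under 0.05, beside 6.62% and 3.86% of all tested genes. Their median log2 fold change was -0.59, with sums of 92.4 to 177 TPM in HFD and 152 to 191 TPM in LFD. Sox10, which defines Schwann cells, was at 0.07 to 0.92 TPM in HFD and 0.19 to 0.41 TPM in LFD. Prph, a neuronal filament gene, was at 0 in HFD replicate 3 and LFD replicate 2 and was not tested. Whether the Schwann cell content bears on Scn7a was not tested. Kcna1 and Kcna2, the Kv1 channels of myelinated axons, had log2 fold changes of -0.80 (SE 0.76) and -0.60 (SE 0.64) with overlapping values. Cacna1b, a calcium channel of nerve terminals, was at 17, 16 and 31 reads in HFD and 5, 9 and 9 reads in LFD (log2 fold change 1.35, SE 0.43), while its TPM overlapped. Kcnj10 and Scn9a were too low to test and Scn10a had no count.

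Kcnma1, the pore of the large-conductance calcium-activated BK channel of smooth muscle and many excitable cells (chr14:23289431-24014491, minus strand), was at 0.21, 0.31 and 0.05 TPM in HFD and 1.36, 5.29 and 0.79 TPM in LFD. It was the remaining channel with the lowest log2 fold change, -3.35 (SE 0.96, edgeR adjusted p = 0.295), and in LFD it had the same order of mice in TPM as the muscle markers. Of the other smooth muscle and mural channels, Kcnj8 had a log2 fold change of 0.74 (SE 0.36), Kcna5 one of 0.30 (SE 0.47) and Cacna1c one of -0.25 (SE 0.48), each with overlapping diets, and Kcnmb1 was too low to test. Among 9 smooth muscle and mural markers, Des, which skeletal muscle also expresses, was lower and 1 was higher at an unadjusted p under 0.05. Of all tested genes, 6.62% were lower and 3.86% higher. With the replicate block 0 of the markers were higher, beside 8.75% of all tested genes. Their median log2 fold change was 0.31, with sums of 128 to 299 TPM in HFD and 245 to 551 TPM in LFD. These sums include Des, at 13.35, 30.55 and 17.52 TPM in HFD and 121, 389 and 85.8 TPM in LFD. Of 7 endothelial markers 1 was higher and 0 were lower, beside 3.86% and 6.62% of all tested genes, with a median of 0.83.

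Other remaining channels that were lower in HFD at an unadjusted p under 0.05 were at low or moderate levels. Kcnj15, an inward rectifier, was at 1.08, 1.10 and 0.82 TPM in HFD and 3.99, 3.03 and 3.90 TPM in LFD, with little spread inside either diet (log2 fold change -2.15, SE 0.52, edgeR adjusted p = 0.222). Clcn2, a chloride channel of the plasma membrane, was at 0.93, 0.70 and 0.82 TPM in HFD and 2.03, 3.98 and 2.38 TPM in LFD (log2 fold change -1.58, SE 0.42). The LFD-fed mice did not follow the order of the muscle markers for Kcnj15 in TPM or log2 CPM, and for Clcn2 they followed it in log2 CPM and not in TPM.

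Scn4b, a sodium channel beta subunit, was at 1.51, 2.63 and 0.30 TPM in HFD and 5.33, 17.2 and 3.03 TPM in LFD (log2 fold change -2.23, SE 0.93), in the same order of mice as the muscle markers in both diets. Kcnn3, a small-conductance calcium-activated channel, had a log2 fold change of -1.58 (SE 0.59) that became -0.77 without LFD replicate 2. Kcnk5, a two-pore channel, had one of -1.47 (SE 0.42), Scn2a1 (now Scn2a), a sodium channel of neurons, one of -1.41 (SE 0.49), and Kcnip3, a calcium-binding partner of Kv4 channels, one of -1.39 (SE 0.40). Levels of these 4 genes were between 0.22 and 5.24 TPM over the 6 mice.

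The sign of the difference between diets in mean log2(TPM + 1) and of the edgeR log2 fold change differed for 6 of the 86 tested channels, 1 on the muscle list and 5 others. DESeq2's 14 lower calls were the 12 muscle channels without overlap between the diets, Kcnma1 and Kcnj15, and its higher call was Hcn2.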

How the data were processed

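BAT of 3 HFD-fed and 3 LFD-fed mice was assigned to diets from the labels, and the mice are the replicates. Per the study's methods and the submitters' processing notes, the authors trimmed reads with Trimmomatic 0.36 and quantified them with RSEM 1.3.0 on GRCm38.p4 with the Ensembl 84 annotation. The authors deposited an expected count per gene, which is not normalized and divides reads with several matches among genes. They also deposited TPM, which divides the expected count by effective length and scales each mouse to the same total. A posterior SD of the count was deposited too and was at most 2.76 counts for a muscle list gene in any mouse.

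Expected counts were rounded and all 17668 genes that passed edgeR's filter were tested together in R 4.3.3 with edgeR 4.0.16 (quasi-likelihood test, TMM normalization, Benjamini-Hochberg adjustment, no covariate). As in the study, calls needed an adjusted p below 0.01 with a log2 fold change beyond 1.5 on either side. Log2 CPM used a prior count of 2. The fits were tested on simulated data. DESeq2 1.42.0, other normalizations and filters, other pseudocounts on TPM, mitochondrially encoded genes left out, and each mouse left out in turn were alternatives. Log2(TPM + 1) was used for the sign of TPM differences. The 95% interval of a ratio covers counting error only.

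The labels number the mice 1 to 3 in each diet. Deviations from the diet means correlated across genes with r of 0.229 to 0.522 in the 3 same-numbered pairs and -0.528 to 0.0532 in the 6 other pairs. The numbers were therefore used as a replicate block in an alternative fit. That block was chosen from these same data, so its p values are descriptive.

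The text names the muscle list genes, up to 10 remaining channels in each direction at an unadjusted p under 0.05, the 10 remaining channels with the highest mean TPM, and the members of role lists. Cacng6 and Kcnc1 joined the muscle list because the study names them as lower. The members and all lists were chosen with earlier results of these data known. Some genes that this rule selects are not reported here, but remain in the counts, sums and medians. Positions are from GENCODE M21 on GRCm38. Mice of the same diet differed by more than sampling noise, their counts giving 71.7 to 558 as chi-square per degree of freedom.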

Additional observations from a re-analysis of the deposited data

How the results depend on the processing

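Counts past both thresholds depended on the tool. DESeq2 with default settings called 14 channels lower and 1 higher, and every edgeR setting tried called 0. At an unadjusted p under 0.05, the 22 lower channels were 11 with at least 10 counts in every mouse, a filter that leaves 51 channels and 4 genes of the muscle list, and 19 to 27 with a mouse left out. The 4 higher channels were 1 without normalization factors, 2 with at least 10 counts in every mouse, 7 with the replicate block, and 1 to 4 with a mouse left out, the 1 without HFD replicate 3. With at least 10 counts in every mouse, 3 muscle channels instead of 12 did not overlap and the median log2 fold change of the muscle list was -1.81, since that filter removes the genes near 0 in HFD. With a mouse left out this median ranged from -5.21 (without LFD replicate 3) to -3.89 (without LFD replicate 2), and that of the remaining channels from -0.38 to -0.21. With the replicate block the medians were -4.48 and -0.23, and 28 channels instead of 22 were lower at an unadjusted p under 0.05. The block gave 10 channels an adjusted p under 0.05, where the smallest without it was 0.170. No gene passed both thresholds in either fit. Of 48 named channels, between 0 and 6 changed sign in a setting, the most without LFD replicate 1, among them Clcn3, Kcna1, Kcna2 and Kcne3.

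With 3 mice a diet, and LFD-fed mice that differed several-fold in muscle RNA, small channel differences could not be told from the spread between mice. Levels under 1 TPM rest on few reads.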
